A study of Mus musculus with 9 samples.

Results

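RNA levels of complement and coagulation genes were examined in the non-tumor liver of MUP-uPA and wild-type mice. The 38 listed genes encode 18 complement proteins, including regulators, and 20 coagulation proteins, most of them secreted into plasma by hepatocytes. They were found by gene symbol in the annotation of the Clariom S mouse array, with 1 probe set per gene. In all, 35 of them were measured, 17 of complement and 18 of coagulation, out of 19505 named genes on the array. C3, Klkb1 and Cpb2 were not analysed here, because the annotation used gives no probe set under these symbols.

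Each group held 3 male C57BL/6 mice, 40 weeks old and fed a high-fat diet (HFD). HNK mice carried the MUP-uPA transgene and were injected with honokiol (HNK), a polyphenol of magnolia bark. MUP mice carried the same transgene and received control treatment. WT mice were wild type, also with control treatment, and according to the methods the controls were littermates. The transgene puts urokinase-type plasminogen activator under the major urinary protein promoter, which is active in hepatocytes, and the methods describe injury of newborn hepatocytes from it. Plau, the gene for this activator, had log2 intensities of 5.81, 4.82 and 5.70 in HNK livers, 4.96, 5.29 and 3.67 in MUP livers, and 5.52, 5.49 and 5.87 in WT livers, close to the medians of the negative controls (4.91 to 5.10). It was not higher in the transgenic groups at this age, and the sources used here do not say whether its probe set detects the transgene. The methods describe mice with hepatocellular carcinoma, and do not give tumor status for WT alone. The deposit's design text speaks of 6 mice, whereas 9 samples are labelled, and each array was taken as a separate mouse.

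Complement is a cascade of plasma proteases that marks microbes and injured cells and ends in a pore, the membrane attack complex. Its classical and lectin pathways cleave C4 and C2, its alternative pathway uses factor B, and all of them lead to C5 and then to C6, C7, C8 and C9. Coagulation is also a protease cascade, in which factor VII with tissue factor activates factor X, and thrombin then turns fibrinogen into fibrin. The liver makes most proteins of both cascades, and several are acute-phase proteins, whose synthesis changes with inflammation.

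Values are log2 intensities, and a difference of 1 on this scale is 2-fold in signal. Levels are not compared between genes, because probe sets differ in brightness. The array medians lay between 5.52 and 5.62, and every measured gene of both cascades was above the negative controls, the dimmest with a mean of 10.23. Of 9 measured hepatocyte markers, 1 was called between MUP and WT (Cps1, higher), and their median difference was 0.09. Several of these markers lay near the highest value in the data, 19.93. Alb and Ttr had means of 19.92 and 19.89 in WT livers, against 15.63 for Cps1. Whether differences are compressed near the top of the scale was not tested, so this median does not show equal hepatocyte content. MUP replicate 2 and HNK replicate 3 stood apart in 10 skeletal muscle markers, with a median log2 intensity of 12.58 and 12.15, against 4.19 to 5.16 on the other 7 arrays. MUP replicate 1 stood apart in 8 neutrophil markers, with a log2 summed intensity of 10.99, against 7.9 to 8.6 on the other 8 arrays. Differences were tested with limma over 22206 probe sets, and called means a Benjamini-Hochberg adjusted p under 0.05.

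The first comparison asked how MUP livers differed from WT livers. Complement genes were more often higher than lower in MUP: 5 of the 17 rose (C8b, C2, C4b, Hc and C1ra), while 0 fell and 12 missed the threshold. Over all probe sets the called shares were 1.44% higher and 2.13% lower, and among the 2855 probe sets at least as bright as the dimmest of these genes they were 6.23% and 7.67%. The median log2 fold change of the 17 was 0.60, against 0.00 over all probe sets. Of the 18 coagulation genes 1 rose (F7) and 0 fell. That share of 5.56% higher was near the 6.23% of equally bright probe sets. The median coagulation log2 fold change was 0.29, with 15 means higher in MUP. The groups did not overlap, with MUP above, for 7 complement and 9 coagulation genes, against 11% of all probe sets. MUP lay below WT without overlap for 3 and 2, against 12.5%. Among the 2855 bright probe sets these background shares were 19.8% and 23%. Set against each gene's WT mean, the median complement gene stood at 0.18, 0.32 and 0.59 in HNK livers, 0.42, 0.52 and 0.94 in MUP livers, and -0.02, -0.19 and 0.09 in WT livers. The median coagulation gene stood at 0.07, 0.36 and 0.14 in HNK livers, 0.14, 0.31 and 0.35 in MUP livers, and -0.08, 0.02 and 0.08 in WT livers. All 6 transgenic livers were above the WT livers for complement, and for coagulation 1 HNK liver was not.

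**Figure D1:**
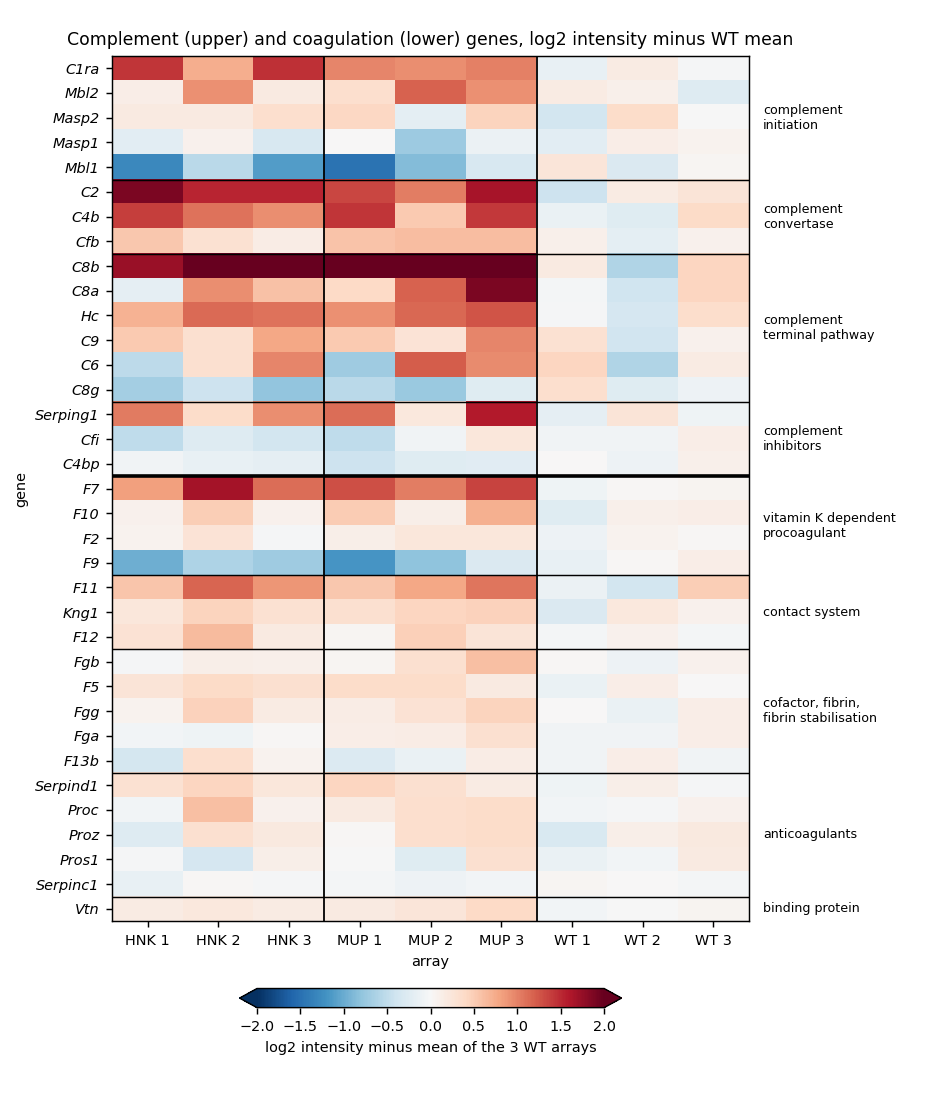
Log2 intensity minus the mean of the 3 WT arrays, for 17 complement genes (upper rows) and 18 coagulation genes (lower rows), ordered by role, with arrays of the HNK, MUP and WT groups in columns. The scale ends at 2, so that C8b is shown at its end on most HNK and MUP arrays, while Mbl1, F9 and C8g are below the WT mean on all 6 HNK and MUP arrays.

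Within complement, the largest difference was in the terminal pathway, and it concerned C8, whose alpha, beta and gamma chains are products of C8a, C8b and C8g. C8b had values of 11.72, 13.56 and 13.07 in HNK livers, 13.26, 13.38 and 14.15 in MUP livers, and 10.16, 9.38 and 10.42 in WT livers. All 6 transgenic livers lay above all 3 WT livers. The log2 fold change in MUP against WT was 3.61 (SE 0.43, limma adjusted p = 0.0016), a 12.2-fold higher signal. C8a had values of 11.92, 13.04 and 12.69 in HNK livers, 12.50, 13.29 and 13.99 in MUP livers, and 12.07, 11.71 and 12.54 in WT livers. The lowest MUP liver was just below the highest WT liver, and the log2 fold change of 1.16 was not called (limma adjusted p = 0.13). C8g ran the other way, with values of 15.81, 16.08 and 15.70 in HNK livers, 15.95, 15.74 and 16.25 in MUP livers, and 16.82, 16.25 and 16.39 in WT livers. The highest MUP and the lowest WT value were equal to the digits given, and the log2 fold change of -0.51 (limma adjusted p = 0.20) was not called. C8a and C8b are neighbours on chromosome 4 with 0 coding genes between them, whereas C8g lies on chromosome 2.

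The remaining terminal genes had higher means in MUP, and of them only Hc was called. Hc, which encodes C5, the source of the chemoattractant C5a and the first protein of the membrane attack complex, had values of 14.82, 15.26 and 15.21 in HNK livers, 15.04, 15.28 and 15.39 in MUP livers, and 14.11, 13.79 and 14.48 in WT livers. It rose by 1.11 (SE 0.21, limma adjusted p = 0.013), without overlap of MUP and WT. C9, the pore-forming protein, and C6 had log2 fold changes of 0.59 and 0.49, which were not called, and for both the MUP and WT values overlapped.

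The convertase genes were higher in MUP for all 3 measured members. C2, a protease subunit of the classical and lectin convertase, had values of 11.12, 10.76 and 10.77 in HNK livers, 10.57, 10.27 and 10.89 in MUP livers, and 8.82, 9.40 and 9.50 in WT livers. The 3 WT livers lay below all others, and the log2 fold change in MUP against WT was 1.33 (SE 0.24, limma adjusted p = 0.012). C4b, which encodes complement C4, had values of 15.33, 15.04 and 14.88 in HNK livers, 15.38, 14.47 and 15.36 in MUP livers, and 13.81, 13.70 and 14.34 in WT livers. Its log2 fold change was 1.12 (SE 0.26, limma adjusted p = 0.039), and MUP replicate 2 was the lowest MUP value, just above the highest WT liver. C4a, a near-identical copy of C4b on the same chromosome, moved alike (1.07, limma adjusted p = 0.040), and the probe sets may share signal. Cfb, the factor B gene next to C2 on chromosome 17, had a log2 fold change of 0.60 (limma adjusted p = 0.078) with no overlap of MUP and WT, and was not called.

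**Figure D2:**
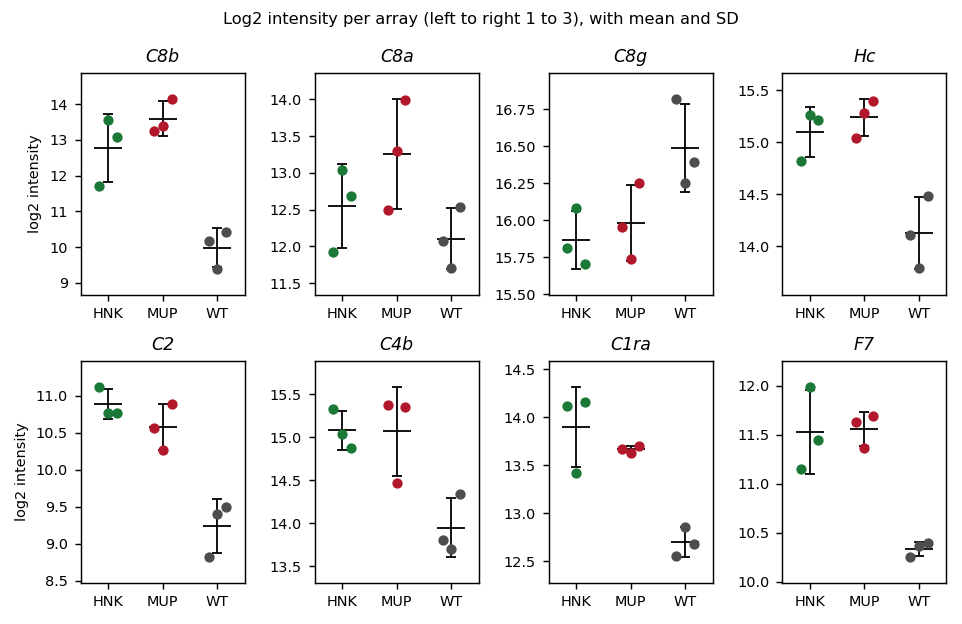
Log2 intensity of C8b, C8a, C8g, Hc, C2, C4b, C1ra and F7 on each array (points), with the mean and SD of the 3 arrays in each of the HNK, MUP and WT groups (bars). For C8b, Hc, C2, C4b, C1ra and F7 all HNK and MUP points lie above all WT points, and the axes differ between genes.

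At the start of the cascade the genes did not move as 1 group. C1ra, which encodes the C1r protease of the first complement component, had values of 14.12, 13.42 and 14.16 in HNK livers, 13.67, 13.63 and 13.70 in MUP livers, and 12.55, 12.86 and 12.68 in WT livers. It rose by 0.97 (SE 0.21, limma adjusted p = 0.028) in MUP against WT, with the groups apart. The mannose-binding lectins, which start the lectin pathway by binding sugars, had opposite signs and neither was called. Mbl2 had values of 14.69, 15.47 and 14.75 in HNK livers, 14.90, 15.75 and 15.48 in MUP livers, and 14.73, 14.66 and 14.30 in WT livers, a log2 fold change of 0.81 in MUP against WT (limma adjusted p = 0.12). Mbl1 had values of 10.91, 11.67 and 11.09 in HNK livers, 10.72, 11.33 and 11.88 in MUP livers, and 12.44, 11.92 and 12.25 in WT livers, a log2 fold change of -0.89 (limma adjusted p = 0.14). The lectin pathway proteases Masp1 and Masp2 had values of -0.28 and 0.22.

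Of the inhibitors, Serping1, which encodes the C1 inhibitor that also blocks contact-system proteases, had a log2 fold change of 0.97 in MUP against WT (limma adjusted p = 0.12), with MUP replicate 2 inside the WT range. Cfi, a protease that cuts C3b and C4b, and C4bp, a cofactor for it, had log2 fold changes of -0.12 and -0.30 and were not called.

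In coagulation, the vitamin K dependent procoagulant genes included the only called gene. F7, which encodes the factor VII that starts clotting with tissue factor, had values of 11.15, 11.99 and 11.45 in HNK livers, 11.63, 11.36 and 11.69 in MUP livers, and 10.25, 10.36 and 10.39 in WT livers. It rose by 1.23 (SE 0.22, limma adjusted p = 0.012), a 2.35-fold higher signal, with all WT values below all others. F9, encoding factor IX, had values of 13.82, 14.18 and 14.08 in HNK livers, 13.62, 13.99 and 14.50 in MUP livers, and 14.65, 14.81 and 14.92 in WT livers. All transgenic livers lay below all WT livers, yet the log2 fold change of -0.75 was not called (limma adjusted p = 0.087). F10, the factor X gene next to F7 on chromosome 8, had values of 13.09, 13.49 and 13.08 in HNK livers, 13.50, 13.11 and 13.71 in MUP livers, and 12.76, 13.10 and 13.13 in WT livers, with overlap and a log2 fold change of 0.44 in MUP against WT. F2, the prothrombin gene, had a log2 fold change of 0.19, and F7 and F9 had opposite signs.

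The other coagulation genes showed smaller differences, and none was called in MUP against WT. Of the contact-system genes, F11, encoding factor XI, had values of 10.24, 10.85 and 10.57 in HNK livers, 10.22, 10.46 and 10.76 in MUP livers, and 9.56, 9.31 and 10.18 in WT livers. MUP and WT were apart by a narrow margin, and the log2 fold change was 0.80 (limma adjusted p = 0.13). Kng1, the kininogen gene, and F12 had log2 fold changes of 0.40 and 0.26. The fibrinogen chains Fga, Fgb and Fgg, the cofactor gene F5 and F13b, the carrier subunit of factor XIII, lay between -0.08 and 0.32. The anticoagulant genes Serpinc1 (antithrombin), Serpind1, Proc, Pros1 and Proz lay between -0.07 and 0.31, and Vtn, encoding the adhesive plasma protein vitronectin, was at 0.28. Some of these genes were near the highest value in the data, 19.93, with WT means of 19.34 for Vtn, 18.84 for Fgg and 18.71 for Fga. Whether differences are compressed at that level was not tested. The dimmer Pros1 and F13b, with WT means of 10.43 and 11.85, differed by 0.02 and -0.08.

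Calls of single genes depended on the arrays used. In MUP against WT, C8b kept its call when any 1 array was left out, with values between 3.31 and 3.83. C2 lost its call without WT replicate 1 (1.13, limma adjusted p = 0.058) or MUP replicate 3 (1.18, limma adjusted p = 0.053). F7 lost its call without WT replicate 1, WT replicate 3 or MUP replicate 3 (0.053 to 0.061), and Hc without WT replicate 1, WT replicate 2 or MUP replicate 3 (0.056 to 0.06), all adjusted p from limma. C4b lost its call without any of the WT arrays, MUP replicate 1 or MUP replicate 3 (0.056 to 0.15), and C1ra without any of the WT or MUP arrays (0.058 to 0.12). F9 was called lower without MUP replicate 3, at -0.99 (limma adjusted p = 0.037). Without both arrays rich in muscle signal, 5 of the 6 called genes kept their call and C1ra did not (0.98, limma adjusted p = 0.052). Without MUP replicate 1, the array rich in neutrophil signal, 4 kept their call, and the median complement log2 fold change was 0.89.

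Promoter sequence was set beside these values for the called genes with an entry, for C8a, the neighbour of C8b, and for Fgb, a gene that was not called but holds several matches. The RefSeq promoter table (GRCm38.p6) holds 27 of the 35 measured genes with 28 promoters, each running from 250 bases before to 50 after the gene's start, and C2 and C4b are named only. Motifs were searched on both strands, and capitals mark the matches. They were the TATA box TATAAA, the HNF1 half-site GTTAAT, the HNF4 core AAAGTCC, the C/EBP motif TTNNGCAA, the STAT motif TTCNNNGAA and the D-box TTATGNAA, the site of the PAR bZIP factors Dbp, Tef and Hlf.
C8b, chr4:104766067-104766366, plus strand: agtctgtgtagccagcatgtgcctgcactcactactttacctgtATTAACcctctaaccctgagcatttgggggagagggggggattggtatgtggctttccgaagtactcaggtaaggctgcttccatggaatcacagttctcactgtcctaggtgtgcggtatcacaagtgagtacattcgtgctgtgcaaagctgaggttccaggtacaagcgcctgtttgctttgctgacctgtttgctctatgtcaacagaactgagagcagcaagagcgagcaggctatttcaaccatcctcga
C8a, chr4:104876349-104876648, minus strand: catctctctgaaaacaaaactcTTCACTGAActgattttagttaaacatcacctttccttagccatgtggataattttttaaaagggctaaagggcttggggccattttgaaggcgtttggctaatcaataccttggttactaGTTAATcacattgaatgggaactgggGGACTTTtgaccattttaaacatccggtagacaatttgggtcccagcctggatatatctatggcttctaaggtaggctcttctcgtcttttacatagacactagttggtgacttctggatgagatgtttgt
Hc, chr2:35061363-35061662, minus strand: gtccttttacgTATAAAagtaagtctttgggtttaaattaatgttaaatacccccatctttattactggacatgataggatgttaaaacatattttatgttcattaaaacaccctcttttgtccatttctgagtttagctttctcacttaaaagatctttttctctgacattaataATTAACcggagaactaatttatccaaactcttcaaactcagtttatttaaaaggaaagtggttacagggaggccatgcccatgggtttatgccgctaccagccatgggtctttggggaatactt
C1ra, chr6:124512371-124512670, plus strand: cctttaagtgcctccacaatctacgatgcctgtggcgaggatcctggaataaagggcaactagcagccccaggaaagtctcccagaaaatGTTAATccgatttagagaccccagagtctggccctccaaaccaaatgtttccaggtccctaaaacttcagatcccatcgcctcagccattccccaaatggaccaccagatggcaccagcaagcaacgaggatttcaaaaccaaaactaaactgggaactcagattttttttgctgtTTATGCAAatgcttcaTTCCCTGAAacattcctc
F7, chr8:13025784-13026083, plus strand: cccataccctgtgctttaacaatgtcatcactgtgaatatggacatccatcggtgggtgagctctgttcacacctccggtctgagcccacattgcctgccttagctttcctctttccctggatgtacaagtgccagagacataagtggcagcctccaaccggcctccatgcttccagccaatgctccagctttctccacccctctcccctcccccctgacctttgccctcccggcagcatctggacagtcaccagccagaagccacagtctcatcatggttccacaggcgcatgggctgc
Fgb, chr3:83049814-83050113, minus strand: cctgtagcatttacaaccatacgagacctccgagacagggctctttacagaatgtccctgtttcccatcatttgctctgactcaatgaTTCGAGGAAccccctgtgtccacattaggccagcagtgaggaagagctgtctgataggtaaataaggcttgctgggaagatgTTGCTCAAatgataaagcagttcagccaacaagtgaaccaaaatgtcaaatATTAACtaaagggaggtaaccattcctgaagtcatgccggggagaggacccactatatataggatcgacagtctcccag

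An HNF1 half-site was found in 11 of the 28 promoters of both cascades (39.3%), against 7.1% of the 32851 promoters in the table. It lay at -206 to -201 in C8b, -107 to -102 in C8a, -74 to -69 in Hc, -160 to -155 in C1ra and -29 to -24 in Fgb, counted from the gene's start, and the F7 window held none of the 6 motifs. The C/EBP motif was found in 25% against 10.8%, the STAT motif in 28.6% against 8.3%, and the D-box in 10.7% against 3.38%. The D-box share rests on 3 promoters, those of C1ra, C4bp and C9. Of these genes C4bp (-0.30) and C9 (0.59) were not called in MUP against WT. The D-box of C1ra, at 17 to 24, covers the same bases as its C/EBP match. The HNF4 core (3.57% against 4.21%) and the TATA box (7.14% against 13.6%) were not more frequent in these promoters. A match describes letters only, and it was present both in called genes and in genes that did not pass, such as Fga and Fgb. Of 20 measured liver transcription factors, 2 were called in MUP against WT, both higher and both D-box factors. Their share was 10%, against 1.44% of all probe sets called higher. Dbp had values of 15.05, 15.23 and 15.25 in HNK livers, 15.11, 15.40 and 15.10 in MUP livers, and 9.14, 13.07 and 10.27 in WT livers, a wide spread in WT, and rose by 4.37 (limma adjusted p = 0.0062). Tef rose by 1.49 (limma adjusted p = 0.010) but lay at or below the negative control median on 7 arrays, and Hlf, the other factor of this kind, differed by -0.23 (limma adjusted p = 0.75). Onecut1 was higher by 2.69, more than Tef, with MUP above WT without overlap, but just missed the threshold (limma adjusted p = 0.051). Neither Hnf4a (-0.01) nor Cebpa (0.52), Cebpb (-0.16), Cebpd (-0.65), Stat3 (0.30) and Stat5a (-0.56) was called.

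The second comparison asked what honokiol changed in MUP-uPA livers. No complement or coagulation gene was called in HNK against MUP in either direction, where 0.0045% of all probe sets were called higher and 0% lower, and 0 of the 35 genes had an unadjusted p under 0.05 with limma, against 463 probe sets higher and 505 lower. The median log2 fold change was -0.11 for complement and -0.07 for coagulation genes, against -0.01 over all probe sets, and all adjusted p were 1. The groups did not overlap for C4bp, with HNK above (4.11% of all probe sets), and for Cfb and Fga, with HNK below (4.48%).

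The 3 smallest p-values of the complement genes were those of C8b, C8a and Mbl2, and the 3 smallest of the coagulation genes those of Fga, Fgb and F10. These 6 had lower means in HNK, whereas C2, C4bp and C1ra, whose p-values were smaller than that of F10, had higher means in HNK. C8b differed by -0.82 (95% interval -1.76 to 0.12), with HNK replicates 1 and 3 below every MUP liver and HNK replicate 2 among them. C8a differed by -0.71 (-1.53 to 0.11), and Mbl2 by -0.41 (-0.97 to 0.16). For both C8 genes the HNK and MUP values overlapped. Fga, the fibrinogen alpha chain, had values of 18.65, 18.61 and 18.72 in HNK livers, 18.84, 18.85 and 19.03 in MUP livers, and 18.63, 18.64 and 18.84 in WT livers. All HNK values were below all MUP values, by a log2 fold change of -0.25 (-0.53 to 0.03). Fgb, the beta chain, had values of 17.96, 18.10 and 18.09 in HNK livers, 18.03, 18.30 and 18.59 in MUP livers, and 18.01, 17.88 and 18.07 in WT livers, a difference of -0.26 with overlap. F10 differed by -0.22 (-0.68 to 0.23). These sizes depended on single arrays. C8b stood at -0.28 without HNK replicate 1 and at -1.20 without HNK replicate 2, C8a at -0.35 without MUP replicate 3 and at -1.09 without MUP replicate 1, and Mbl2 at -0.22 without MUP replicate 2 and at -0.66 without HNK replicate 2. Fgb stood at -0.11 and F10 at -0.08 without MUP replicate 3, against -0.40 for Fgb without MUP replicate 1 and -0.39 for F10 without MUP replicate 2, and Fga ran from -0.28 to -0.19. Over the 35 genes the ends of the 95% intervals ran from -1.76 to 0.84, and a missed threshold does not show that HNK and MUP had equal levels.

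**Figure D3:**
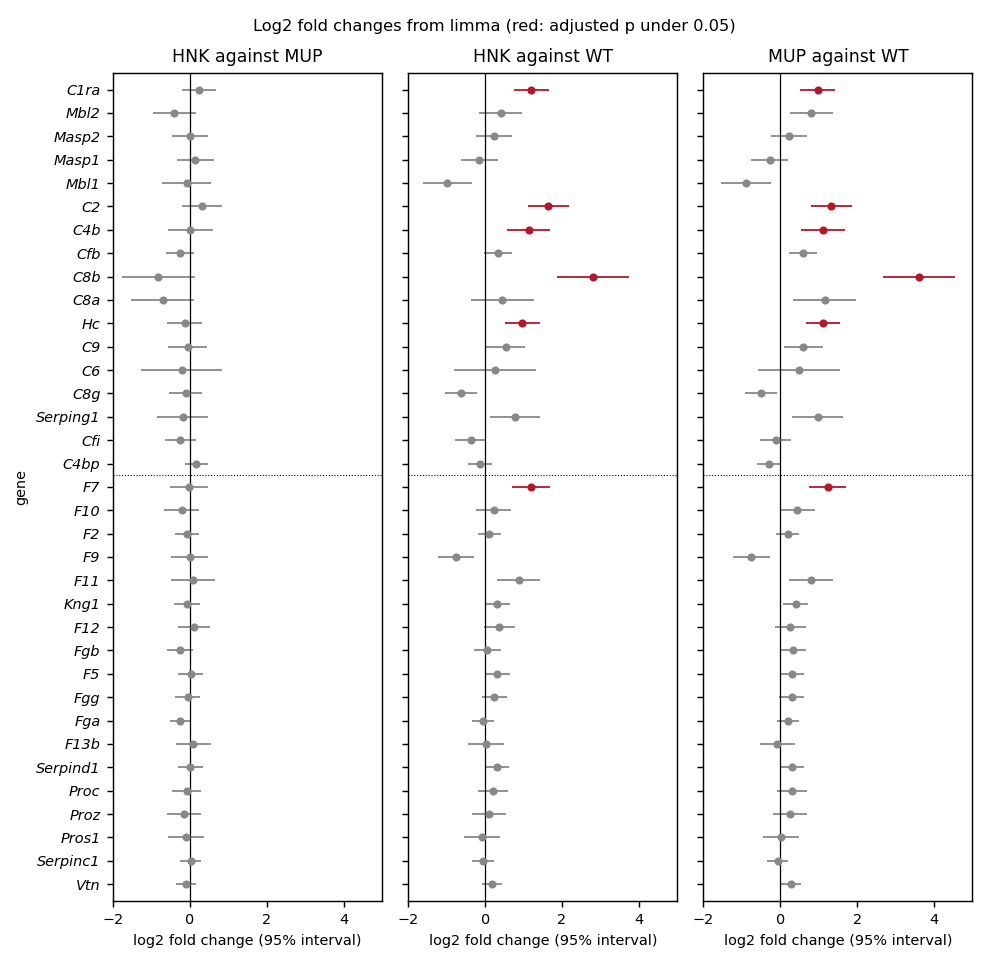
Log2 fold changes with 95% intervals from limma for the 35 measured genes, complement above and coagulation below the dotted line, in HNK against MUP, HNK against WT and MUP against WT. Red points are called at an adjusted p under 0.05. They are C1ra, C2, C4b, C8b, Hc and F7 in both comparisons with WT, and none in HNK against MUP.

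The third comparison set honokiol-treated MUP-uPA livers against WT. The 6 called genes were C8b, C2, C4b, Hc, C1ra and F7, all higher in HNK. They make up 5 of 17 complement (29.4%) and 1 of 18 coagulation genes (5.56%). Over all probe sets 0.964% were called higher and 1.33% lower. Among the 2855 probe sets at least as bright as the dimmest measured gene of both cascades, the shares were 4.2% and 5.04%. The coagulation share was thus near that of equally bright probe sets. C8b rose by 2.80 (SE 0.43, limma adjusted p = 0.0082), C2 by 1.64 (SE 0.24, limma adjusted p = 0.0063) and F7 by 1.20 (SE 0.22, limma adjusted p = 0.019). C1ra rose by 1.20, C4b by 1.13 and Hc by 0.97, with limma adjusted p of 0.015, 0.047 and 0.033. The median log2 fold change was 0.41 for complement and 0.20 for coagulation genes. HNK lay above WT without overlap for 8 complement and 7 coagulation genes, against 9.37% of all probe sets, and below it for 3 and 1, against 11.1%. Among the 2855 bright probe sets these background shares were 17.1% and 24.2%. Mbl1 (-0.98), F9 (-0.77) and C8g (-0.62) were below WT and not called, and C8a, the neighbour of C8b, was at 0.44. This comparison shares its WT arrays with the first and its HNK arrays with the second, so the 3 sets of values are not independent. C8b and C2 kept their calls when any 1 array was left out. C4b lost its call without any of the WT or HNK arrays or MUP replicate 3 (limma adjusted p 0.058 to 0.17), and Hc without any of the WT arrays, HNK replicate 2 or HNK replicate 3 (0.052 to 0.12). F7 lost its call without any of the WT arrays or HNK replicate 3 (0.051 to 0.087), and C1ra without WT replicate 1, WT replicate 3 or HNK replicate 3 (0.053 to 0.073). Hc lost its call without both arrays rich in muscle signal (0.92, limma adjusted p = 0.094).

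Other genes of both cascades gave a different picture. Of 34 further complement genes 31 were measured, and in MUP against WT 2 rose (C4a and C1rb), 5 fell (Cd59a, Colec11, Cd59b, C1s1 and C1s2), and the median was -0.36. The called shares were 6.45% higher and 16.1% lower, against 1.44% and 2.13% over all probe sets. Cd59a and Cd59b encode copies of CD59, a membrane protein that blocks the membrane attack complex. Cd59a had values of 13.33, 13.54 and 14.01 in HNK livers, 13.32, 13.29 and 13.36 in MUP livers, and 15.25, 15.03 and 14.92 in WT livers. It fell by 1.74 in MUP against WT (SE 0.19, limma adjusted p = 0.0011), and Cd59b fell by 1.19 (SE 0.20, limma adjusted p = 0.0074). Whether their probe sets share signal was not tested. C1s1, which encodes the C1s protease cut by C1r, had values of 14.46, 14.19 and 14.40 in HNK livers, 13.92, 14.00 and 14.16 in MUP livers, and 15.03, 14.97 and 15.18 in WT livers. It fell by 1.03 (SE 0.16, limma adjusted p = 0.0050), opposite to C1ra, its neighbour on chromosome 6, and C1s2 had a value of -0.84 and C1rb one of 0.89, both at a limma adjusted p of 0.049. Colec11, a collectin that starts the lectin pathway, fell by 1.66 (SE 0.27, limma adjusted p = 0.0071). The calls of Cd59a, Cd59b, C1s1 and Colec11 were kept when any 1 array was left out. C4a lost its call without 6 of the 9 arrays, C1rb without 7 and C1s2 without 9.

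Genes of the C1q recognition subunit, which macrophages make, had low values in the transgenic livers but were not called. C1qb had values of 11.60, 8.57 and 11.64 in HNK livers, 11.37, 10.38 and 11.25 in MUP livers, and 13.58, 12.18 and 14.00 in WT livers, with a log2 fold change of -2.25 in MUP against WT (limma adjusted p = 0.12). C1qa had one of -1.83 (limma adjusted p = 0.11), Vsig4, a complement receptor of Kupffer cells, one of -2.36 (limma adjusted p = 0.089), and Cfp, encoding properdin, one of -1.59 (limma adjusted p = 0.29). All 12 measured Kupffer cell and macrophage markers had lower means in MUP than in WT, with a median of -1.75 and 2 of them called (Adgre1 and Cd14). The markers include C1qa, C1qb, C1qc and Vsig4, so their values are not independent of these complement genes. Their log2 fold changes ran from -2.36 (Vsig4) to -0.16 (Marco), with Timd4 at -0.21 and Csf1r at -0.70. The log2 of their summed intensity was 12.77 to 14.78 in HNK livers, 13.77 to 14.79 in MUP livers and 15.27 to 16.78 in WT livers, and their part in the result was not tested. In whole liver, fewer cells of a type and less RNA per cell cannot be told apart.

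**Figure D4:**
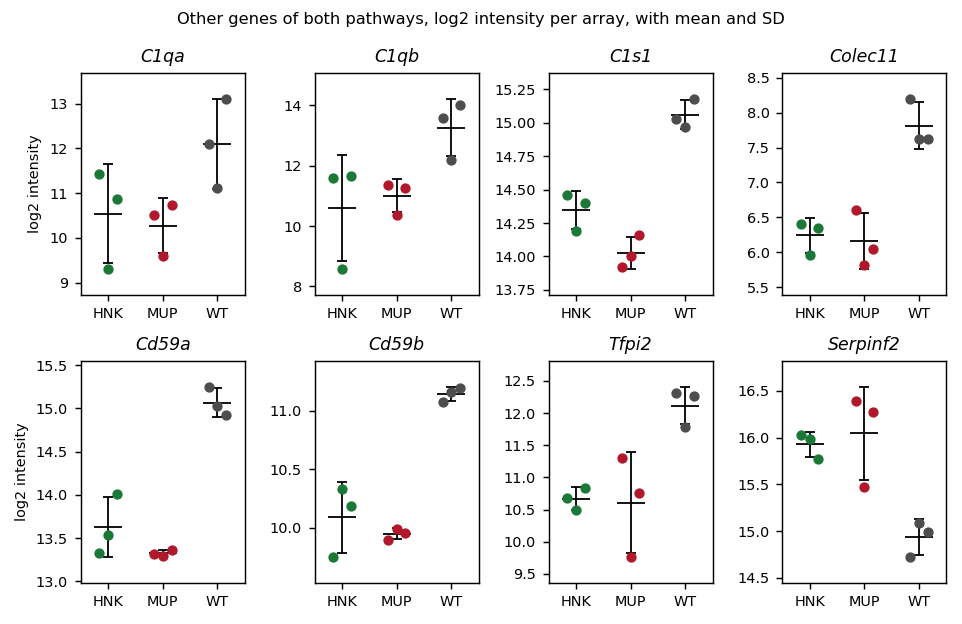
Log2 intensity of C1qa, C1qb, C1s1, Colec11, Cd59a, Cd59b, Tfpi2 and Serpinf2 on each array (points), with the mean and SD of the 3 arrays in each of the HNK, MUP and WT groups (bars). All HNK and MUP points of C1s1, Colec11, Cd59a, Cd59b and Tfpi2 lie below all WT points, those of Serpinf2 lie above, and for C1qa the HNK and WT points overlap.

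Of 34 further coagulation genes 31 were measured, and 1 rose and 1 fell in MUP against WT, with a median of 0.09. Each count is 3.23% of the 31, near the 1.44% of all probe sets called higher and 2.13% called lower. Serpinf2, which encodes the plasmin inhibitor alpha-2-antiplasmin, had values of 16.03, 15.98 and 15.77 in HNK livers, 16.39, 15.47 and 16.27 in MUP livers, and 14.72, 15.09 and 14.99 in WT livers, and rose by 1.11 (SE 0.23, limma adjusted p = 0.023). Tfpi2, a Kunitz-type protease inhibitor, had values of 10.68, 10.49 and 10.84 in HNK livers, 11.30, 9.76 and 10.76 in MUP livers, and 12.31, 11.78 and 12.26 in WT livers, and fell by 1.51 (SE 0.33, limma adjusted p = 0.028). Both genes had all transgenic livers on 1 side of WT, and they lost their calls without 5 and 4 of the 9 arrays. Fgl1 (1.45, limma adjusted p = 0.085), Plau (-0.98, limma adjusted p = 0.23), F8 (-0.90, limma adjusted p = 0.18) and Vwf (0.86, limma adjusted p = 0.053) were not called. In HNK against MUP 0 further genes of either cascade were called. With limma, 3 of 31 complement and 1 of 31 coagulation genes had an unadjusted p under 0.05, all with lower means in HNK. Over all 22206 probe sets, 505 were lower and 463 higher at this level.

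In HNK against WT, 2 of the further complement genes rose (C4a and C1rb) and 6 fell (Cd59a, Colec11, C3ar1, Cd59b, Vsig4 and C1s1), and of the coagulation genes 1 rose (Serpinf2) and 4 fell (Tfpi, Tfpi2, Mcfd2 and F8). The called shares were 6.45% higher and 19.4% lower for complement, and 3.23% and 12.9% for coagulation. Over all probe sets they were 0.964% and 1.33%. C3ar1, the receptor for C3a, fell by 1.98 (limma adjusted p = 0.017), and Cd59a fell by 1.44 (limma adjusted p = 0.0033). Tfpi, which encodes the inhibitor of factor VII with tissue factor, fell by 1.46 (limma adjusted p = 0.040). Like F8, it is made mainly by endothelial cells. All 10 markers of sinusoidal endothelial cells had lower means in HNK than in WT, 4 of them called, with a median of -1.33. The log2 of their summed intensity was 12.30 to 12.77 in HNK livers, 12.62 to 13.66 in MUP livers and 14.14 to 14.66 in WT livers, and their part in the result was not tested. Mcfd2, a carrier for factors V and VIII in the secretory pathway, fell by 1.11 (limma adjusted p = 0.026), and F8, the factor VIII gene, by 1.43 (limma adjusted p = 0.050, below the threshold before rounding). All of these calls except that of Cd59a were lost without at least 2 of the 9 arrays.

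Acute-phase genes outside both cascades were also set beside these genes. Of 24 measured, 9 rose in MUP against WT (37.5%, against 1.44% over all probe sets), and the median of the 24 was 0.54. Only 1 fell (4.17%, against 2.13% over all probe sets), which was Crp (-1.72, limma adjusted p = 0.013). Among those that rose were the serum amyloid genes Saa1 (2.54) and Saa2 (3.17) and the orosomucoid gene Orm2 (3.08). For the 2855 bright probe sets the called shares were 6.23% higher and 7.67% lower, though some of the 24, such as Socs3, were dimmer than those. In HNK against MUP 0 of the 24 were called. In HNK against WT 3 were higher (12.5%) and 1 lower (4.17%), against 0.964% and 1.33% over all probe sets and 4.2% and 5.04% of the bright ones. No difference between these counts was tested.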

How the data were processed

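RNA of 9 livers was hybridised to Clariom S arrays. The deposited values are intensity values on a linear scale that the authors had normalized. Their processing notes name RMA and Affymetrix Expression Console, of versions not given in the sources used here, and the methods name the MicroArray Data Analysis Tool of Filgen. Of 28846 rows, 6640 control rows were left out. The log2 values of 22206 probe sets entered 1 limma model (version 3.58.1, R 4.3.3) of all 9 arrays, without covariates. The functions were lmFit and eBayes (trend option on), and the fit had 6 residual and 5.83 prior degrees of freedom. Tests were two-sided and measure the spread between these arrays, whose number limits the precision. Per-array values are given for every called gene of both cascades, for the 4 of each with the largest change in MUP against WT and for the 3 of each with the smallest p in HNK against MUP. Of the further genes, those called and up to 4 more with large changes are named. The genes, lists, motifs and tests were chosen with earlier results of these data known. The fit was checked on simulated data with independent normal noise. That check did not cover signal shared by many genes of an array, such as the muscle or neutrophil signal. The files name no build, so gene order and promoters are those of RefSeq GRCm38.p6. Alternatives were both groups alone, the replicate block, leaving out the dimmest 40 percent of probe sets, cyclic loess, median centring, the methods' t-test, eBayes without trend, and fits without 1 array or without 2.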

Additional observations from a re-analysis of the deposited data

How the results depend on the processing

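The counts of called genes and the medians of both cascades, and the counts over all probe sets, were recomputed under 17 alternatives, unlike counts without overlap and those of the further lists. The 6 called genes kept their direction in all of them in both comparisons with WT. With both groups' arrays alone, 1 coagulation gene was called lower in HNK against WT, and 0 probe sets higher in HNK against MUP. That count was also 0 without MUP replicate 2 and HNK replicate 3 together. Without the variance trend, 3 complement genes were higher in HNK against WT. With the methods' t-test after Benjamini-Hochberg adjustment, 0 complement and 0 coagulation genes and 0 probe sets were called in either direction in MUP against WT or HNK against WT. At an unadjusted p under 0.05 that test called 7 complement genes higher and 1 lower and 6 coagulation genes higher and 1 lower in MUP against WT, beside 1469 probe sets higher and 1778 lower. Leaving out 1 array at a time gave 1 to 5 complement genes higher in MUP against WT and 2 to 5 in HNK against WT. It gave 0 to 1 coagulation genes higher in each of these, and 0 to 1 lower in MUP against WT. Over all probe sets it gave 109 to 359 higher and 146 to 559 lower in MUP against WT, 52 to 243 higher and 62 to 322 lower in HNK against WT, and 0 to 2 higher in HNK against MUP. The median complement log2 fold change ran from 0.50 to 0.89 in MUP against WT and from -0.22 to 0.12 in HNK against MUP, where it was above 0 only without MUP replicate 3. The coagulation median ran from 0.07 to 0.28 in HNK against WT. The cause of these changes was not tested. Same-numbered arrays correlated in their deviations at r = -0.06, 0.00 and 0.05 in MUP against WT, 0.40, -0.16 and -0.29 in HNK against MUP, and 0.03, 0.13 and 0.05 in HNK against WT. Not every pair was above 0.1 in any comparison, so the numbers were not taken to pair the mice. The replicate block kept all 6 called genes in both comparisons, with 5 complement and 1 coagulation genes higher and 0 lower, and ended the calls of C1rb and C1s2 in MUP against WT and of C1rb and Serpinf2 in HNK against WT.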
